A study of Homo sapiens with 6 samples.

Results

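The 10 genes described here belong to the later germ cell and piRNA pathway programme: DDX4, DAZL, MAEL, PIWIL1, PIWIL2, PIWIL4, TDRD1, TDRD9, SYCP3 and STRA8. They were listed by name, by a rule that uses no measured value but was written with earlier results of these data known, and each matched 1 Ensembl identifier among the 62700 genes of the deposited table. Polyadenylated RNA was sequenced from TCam-2, an established human cell line derived from a testicular seminoma, in 3 groups of 2 libraries. The WT group was not transduced, the GFP group carried GFP_FLAG (green fluorescent protein with a FLAG tag, a control for transduction and tag), and the RBMXL3 group carried RBMXL3_FLAG, an X-linked relative of the RNA-binding protein RBMX. The controls served to find expression differences that follow RBMXL3 overexpression. The vector's promoter and whether the transduced cells were clones or pools are not given in the sources used here. Nothing states that the 2 libraries of a group came from separate cultures, so p-values measure only the spread between these libraries.

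The piRNA pathway protects the germ line. PIWI proteins, a branch of the Argonaute family, bind short piRNAs that guide them to transposon transcripts, and Tudor domain proteins and RNA helicases hold them together in cytoplasmic granules called nuage. DDX4, DAZL, SYCP3 and STRA8 mark germ cells on their way to and through meiosis, whereas seminomas keep many features of primordial germ cells.

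The WT libraries held 29318007 and 28604436 recovered reads, the GFP libraries 26776703 and 23080795, and the RBMXL3 libraries 17685680 and 21023355, so the RBMXL3 libraries were the shallowest. The RBMXL3 gene had 0 reads in the 4 control libraries and 84 and 68 reads in the RBMXL3 libraries. All 12 seminoma and germ cell tumour identity markers, among them POU5F1, the pluripotency factor with the highest level of that list, passed the filter on low values. Of 12 markers of somatic testis, stroma and immune cells, 3 passed the filter, 2 stayed below it, 5 had at most 3 reads in any library, and CYP17A1 and CD3E had 0 reads in every library. These markers together summed to 392 and 447 normalised reads in WT, 575 and 589 with GFP, and 695 and 728 with RBMXL3. The mean normalised reads of the members that could be tested had the same order, but the transcript levels of PIWIL4 given below did not. The part of these markers in the results below was not tested.

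RefSeq promoter windows (GRCh38.p14, 250 bases before to 50 bases after the start) were found for 8 of the 10 genes, in 12 windows. They are shown for the most abundant member (TDRD9), for the member that was higher against both controls (PIWIL1), for a barely read Tudor gene (TDRD1) and for the silent gene (DAZL). Capitals mark matches on either strand to the E-box CACGTG, which MYC, MAX and MGA family proteins bind, and to GCGGGAA, a motif bound by E2F6. The windows lie at chr14:103928206-103928505 (TDRD9, plus strand), chr12:130337637-130337936 (PIWIL1, plus strand), chr10:114179037-114179336 (TDRD1, plus strand) and chr3:16604741-16605040 (DAZL, minus strand), and each is written 5′ to 3′ on the strand of its gene.
TDRD9: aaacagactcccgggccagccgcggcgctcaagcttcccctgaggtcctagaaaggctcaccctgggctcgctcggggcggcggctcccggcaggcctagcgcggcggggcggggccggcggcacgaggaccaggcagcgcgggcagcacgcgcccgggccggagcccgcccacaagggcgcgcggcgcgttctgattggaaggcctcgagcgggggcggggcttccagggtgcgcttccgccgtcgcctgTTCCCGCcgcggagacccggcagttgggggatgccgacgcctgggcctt
PIWIL1: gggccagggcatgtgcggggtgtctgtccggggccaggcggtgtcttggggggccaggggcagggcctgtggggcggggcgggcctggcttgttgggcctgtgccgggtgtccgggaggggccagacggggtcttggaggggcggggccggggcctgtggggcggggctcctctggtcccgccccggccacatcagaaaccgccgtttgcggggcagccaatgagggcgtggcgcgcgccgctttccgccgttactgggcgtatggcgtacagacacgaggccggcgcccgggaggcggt
TDRD1: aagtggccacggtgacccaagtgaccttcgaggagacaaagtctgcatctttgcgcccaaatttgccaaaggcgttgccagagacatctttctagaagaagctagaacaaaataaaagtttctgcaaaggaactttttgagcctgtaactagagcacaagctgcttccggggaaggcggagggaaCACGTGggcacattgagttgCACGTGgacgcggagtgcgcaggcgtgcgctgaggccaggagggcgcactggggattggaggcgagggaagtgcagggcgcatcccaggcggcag
DAZL: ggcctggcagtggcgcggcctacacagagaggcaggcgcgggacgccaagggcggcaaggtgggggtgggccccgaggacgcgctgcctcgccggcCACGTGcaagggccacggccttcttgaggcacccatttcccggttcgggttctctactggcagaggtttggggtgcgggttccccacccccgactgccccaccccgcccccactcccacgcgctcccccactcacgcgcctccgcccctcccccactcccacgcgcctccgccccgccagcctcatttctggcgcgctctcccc

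The TDRD1 window held 2 E-boxes, which began at -65 and -45 relative to the start. The DAZL window held 1 E-box, at -154, and a second, downstream MAEL window held 1 at -211. Counting both overlapping TDRD1 windows, 4 of the 12 windows, from 3 of 8 genes, held CACGTG, beside 7.26% of all 35116 RefSeq windows. The E2F6 motif was found in the TDRD9 window alone, beginning 1 base after the start on the opposite strand, and in 6.55% of all windows. A further motif, GCCNNNGGC, bound by AP-2 factors, was found in 5 of the 12 windows and in 23.2% of all windows, and none of its matches overlapped a capital letter above. The CpG ratio (observed over expected from base composition) was 0.941 in TDRD9 and 0.749 in PIWIL1, close to 0.862 and 0.732 in the DAZL windows, against a median of 0.579 over all windows. The members' CpG-poorest windows were the DDX4 window, at 0.120, and an upstream STRA8 window, at 0. The DDX4 window (chr5:55766635-55766934) lies inside the gene, whose annotated start is 55738017. No window was found at that start, so the CpG ratio there is not known from these windows. A match says only that these letters occur in the window.

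TCam-2 cells carried reads from 9 of the 10 genes, but only 3 of them were at a level that allowed a test. The plot of reads by gene and library shows a steep fall from TDRD9 to the remaining members. A gene was kept for testing when at least 2 libraries reached 23.9 normalised reads, that is, reads divided by the library's size factor. TDRD9 (ENSG00000156414.20, chr14:103928462-104052667), PIWIL1 (ENSG00000125207.7, chr12:130337887-130372637) and PIWIL4 (ENSG00000134627.12, chr11:94543840-94621421) passed. DDX4, MAEL, PIWIL2, TDRD1 and SYCP3 were read but stayed below this minimum, STRA8 was at trace level, and DAZL was silent. TDRD9 alone gave between 76.1% and 84.0% of the reads of the 10 genes in a library.

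**Figure D1:**
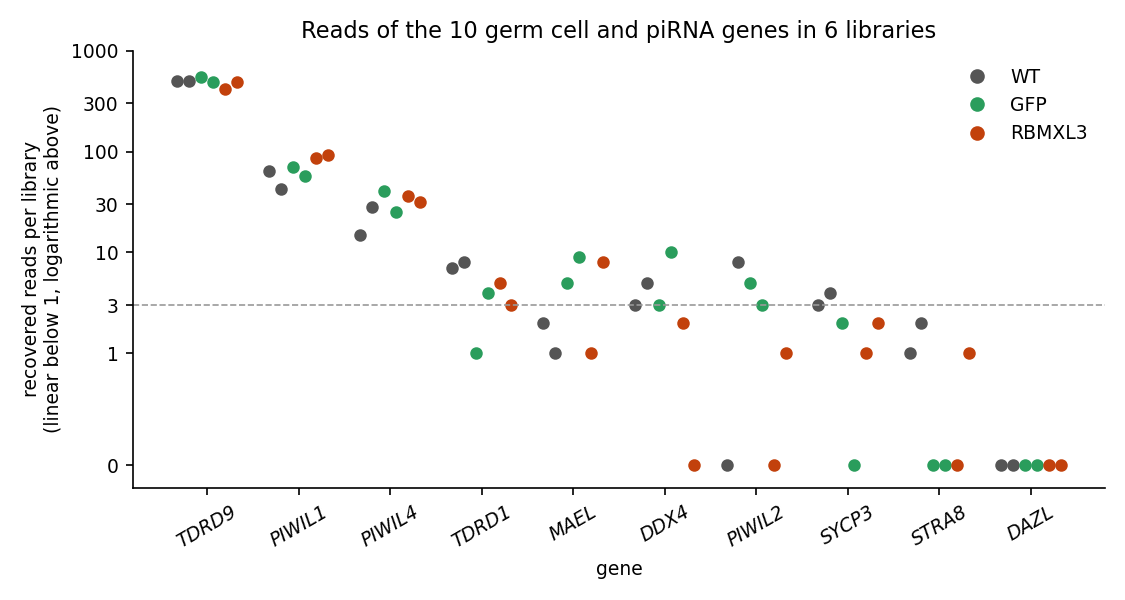
Recovered reads of each of the 10 genes (horizontal axis, ordered by total reads) in each of the 6 libraries (points, coloured by group), on an axis that is linear below 1 and logarithmic above, with a dashed line at 3 reads. TDRD9 lies between 420 and 546 reads in every library, PIWIL1 and PIWIL4 lie between 15 and 93, and no other member exceeds 10.

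DAZL, an RNA-binding protein that promotes translation in germ cells, had 0 reads in all 6 libraries, and its 3 annotated transcripts were listed at 0 TPM (a transcript level corrected for length and depth). A count of 0 allows up to 3 reads in a library, or between 2.52 and 3.86 normalised reads across these libraries, for counting error only. Relatives of DAZL exist elsewhere in the genome, and how reads that fit more than 1 gene were counted is not given in the sources used here. STRA8, the retinoic acid-induced regulator of meiotic entry, had 1 and 2 reads in WT, 0 and 0 with GFP, and 0 and 1 with RBMXL3, and was listed at 0 TPM throughout. DAZL and STRA8 were thus at or under the 3-read limit in every library. Of all 19831 protein-coding genes, 14.3% had no read and 23.2% had at most 3 reads in each library, so such levels were common.

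The 5 genes that were read but below the minimum had at most 10 reads in any library. DDX4, the germ cell RNA helicase also called VASA, had 3 and 5 reads in WT, 3 and 10 with GFP, and 2 and 0 with RBMXL3. MAEL, a nuage protein needed for transposon silencing, had 2 and 1 reads in WT, 5 and 9 with GFP, and 1 and 8 with RBMXL3. PIWIL2, a cytoplasmic PIWI protein, had 0 and 8 reads in WT, 5 and 3 with GFP, and 0 and 1 with RBMXL3. The WT libraries of PIWIL2 spanned its whole range. WT and GFP did not overlap in MAEL, whereas its RBMXL3 libraries overlapped both. DDX4 had its fewest reads in the RBMXL3 libraries, which were also the shallowest. TDRD1, a Tudor domain scaffold that binds methylated PIWI proteins, had 7 and 8 reads in WT, 1 and 4 with GFP, and 5 and 3 with RBMXL3. SYCP3, a lateral element protein of the synaptonemal complex that joins paired chromosomes in meiosis, had 3 and 4 reads in WT, 2 and 0 with GFP, and 1 and 2 with RBMXL3. Both WT libraries had the most reads of TDRD1 and SYCP3, by a few reads, but after normalisation the WT and RBMXL3 libraries of TDRD1 overlapped. In fits that kept every gene with a read, none of these 5 genes or STRA8 was called in any comparison: the lowest adjusted p was 0.286 with limma and 0.244 with edgeR's quasi-likelihood test. The lowest unadjusted p was 0.0600 with limma and 0.0237 with edgeR, the latter for MAEL in GFP against WT. At this depth differences of a few reads in these genes could not be resolved.

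Transcript estimates for these genes were as thin. The summed TPM of DDX4, MAEL, PIWIL2, TDRD1 and SYCP3 reached at most 0.283, 0.325, 0.129, 0.0571 and 0.251. TDRD1 was listed at 0 TPM in 4 libraries that held between 1 and 8 of its reads, so a value of 0 in this table does not mean that no read was counted. SYCP3 shares 14.8% of its exon length with CHPT1 on the opposite strand, and STRA8 shares 28.8% with a pseudogene on the opposite strand. CHPT1 had between 606 and 1028 reads per library and the pseudogene 0. Whether counting used the strand of the reads is not given in the sources used here, so the few SYCP3 reads cannot be told apart from CHPT1 reads.

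TDRD9, a Tudor domain RNA helicase that works with PIWI proteins in transposon silencing, was the most abundant member and rose by 0.32 on the log2 scale in RBMXL3 against WT. It had 422.5 and 422.0 normalised reads in WT, 504.5 and 513.8 with GFP, and 540.7 and 521.8 with RBMXL3. WT was lowest in both libraries, and GFP and RBMXL3 lay close together without overlapping. The mean rose from 422 ± 0.353 (SD, n = 2) in WT to 509 ± 6.58 (SD, n = 2) in GFP and 531 ± 13.4 (SD, n = 2) in RBMXL3. With limma, the log2 change against WT was 0.32 (SE 0.11, 95% interval 0.08 to 0.55, adjusted p = 0.0476), on the log2(value + 1) scale used for all changes given here. Against GFP it was 0.06 (95% interval -0.18 to 0.30, adjusted p = 0.748), and GFP against WT it was 0.26 (95% interval 0.02 to 0.50, adjusted p = 0.197). The call against WT was lost when either RBMXL3 or either WT library was left out (limma, adjusted p from 0.132 to 0.290), and with DESeq2 (adjusted p = 0.112). It was called in 7 of 17 alternatives, with adjusted p from 0.0165 to 0.290 (limma, edgeR or DESeq2).

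Nearly all TDRD9 signal came from its full-length protein-coding transcript. TDRD9-202 was at 4.73 and 4.84 TPM in WT, 5.36 and 4.77 with GFP, and 6.89 and 7.05 with RBMXL3, which was between 84.4% and 100% of the gene's TPM in a library. Both RBMXL3 libraries were above all 4 controls, and WT and GFP overlapped. The remainder came from TDRD9-208, a shorter coding transcript, and TDRD9-205, which retains an intron near the 3′ end. In TPM the largest step was from GFP to RBMXL3, whereas in normalised reads it was from WT to GFP. With summed TPM, the log2 change of TDRD9 was 0.29 for RBMXL3 against GFP and 0.17 for GFP against WT. The medians of all tested genes on that scale were 0.13 and -0.09, so the steps in TPM include a shift seen over all genes.

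PIWIL1, also called HIWI, the PIWI protein best known from meiotic and post-meiotic male germ cells, rose against both controls. It had 64 and 43 reads in WT, 70 and 57 with GFP, and 87 and 93 with RBMXL3. After division by the size factors these were 54.2 and 36.1 normalised reads in WT, 64.7 and 60.4 with GFP, and 112 and 99.4 with RBMXL3. Both RBMXL3 libraries exceeded all 4 controls, and no groups overlapped. How often groups of 2 libraries separate like this over all genes or transcripts was not counted. The mean of 106 ± 8.88 (SD, n = 2) in RBMXL3 was 1.69 times the GFP mean of 62.5 ± 3.04 (SD, n = 2) and 2.34 times the WT mean of 45.1 ± 12.8 (SD, n = 2). The log2 change was 0.58 against GFP (SE 0.17, 95% interval 0.21 to 0.96, limma adjusted p = 0.0313) and 0.92 against WT (SE 0.17, 95% interval 0.55 to 1.29, limma adjusted p = 0.00221). Between GFP and WT it was 0.34 (95% interval -0.04 to 0.71, limma adjusted p = 0.271).

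The PIWIL1 rise against GFP rested on few reads and on every library of that comparison except GFP replicate 1. It was not called without GFP replicate 2 (limma, adjusted p = 0.0639), without RBMXL3 replicate 1 (0.215) or replicate 2 (0.121), or with DESeq2 (0.127), and it was called in 9 of 16 alternatives, with adjusted p from 0.0153 to 0.215. The rise against WT was called in 15 of 16 alternatives, with summed TPM as the exception (limma, adjusted p = 0.0845). In bulk RNA, more cells with PIWIL1 and more PIWIL1 RNA per cell cannot be told apart.

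**Figure D2:**
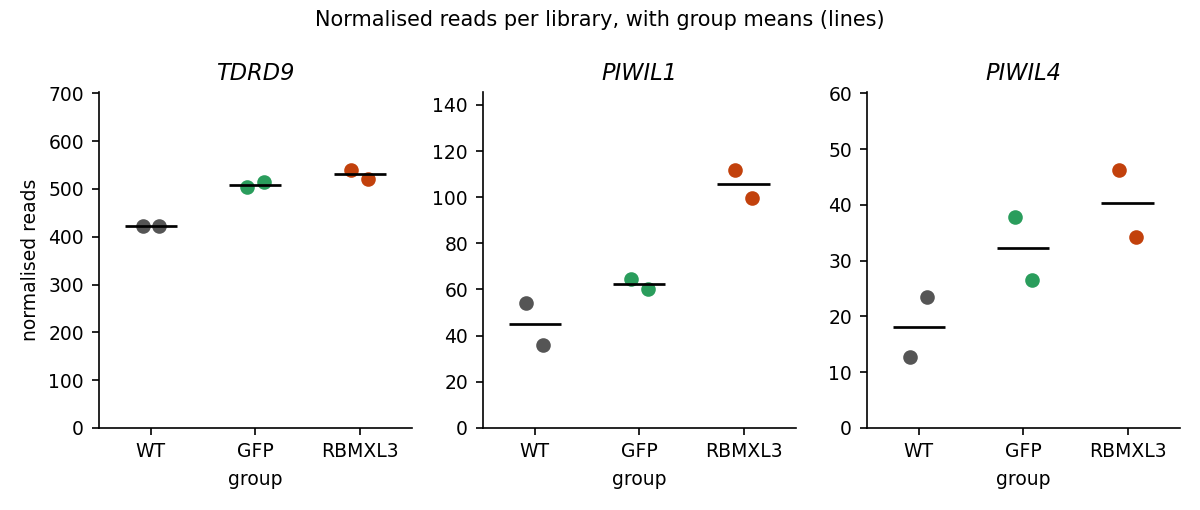
Normalised reads (vertical axes, from 0) of TDRD9, PIWIL1 and PIWIL4 in each library (points) by group, with lines at the group means of n = 2 libraries. PIWIL1 lies at 99.4 and 112 in RBMXL3, above the highest control library at 64.7, whereas the GFP and RBMXL3 points of PIWIL4 overlap.

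In TPM, summed over its transcripts, PIWIL1 was at 1.32 and 0.563 in WT, 1.099 and 1.16 with GFP, and 2.65 and 1.998 with RBMXL3. The RBMXL3 mean was 2.06 times that of GFP and 2.46 times that of WT, while WT and GFP overlapped. The full-length transcript PIWIL1-201 was at 0.815 and 0.563 TPM in WT, 0.917 and 0.955 with GFP, and 1.70 and 1.65 with RBMXL3. It too was higher in both RBMXL3 libraries than in any control. The short transcripts PIWIL1-204 and PIWIL1-208, which cover only the 5′ part of the gene, supplied the rest. PIWIL1-204 reached 0.948 TPM in RBMXL3 replicate 1 and was listed at 0 in RBMXL3 replicate 2, so it was not shared by the replicates.

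PIWIL4, also called HIWI2, the nuclear PIWI protein of fetal germ cells, was called higher against WT and was not called against GFP. It had 15 and 28 reads in WT, 41 and 25 with GFP, and 36 and 32 with RBMXL3. These were 12.7 and 23.5 normalised reads in WT, 37.9 and 26.5 with GFP, and 46.3 and 34.2 with RBMXL3. WT was the lowest group, below the minimum for testing in both libraries, so PIWIL4 was tested only because GFP and RBMXL3 were higher. The log2 change was 0.62 against WT (SE 0.20, 95% interval 0.19 to 1.05, limma adjusted p = 0.0336), 0.20 against GFP (95% interval -0.23 to 0.63, adjusted p = 0.520) and 0.42 for GFP against WT (95% interval -0.01 to 0.85, adjusted p = 0.232). The call against WT was lost without RBMXL3 replicate 1 (limma, adjusted p = 0.240), RBMXL3 replicate 2 (0.0691) or WT replicate 1 (0.249), and with DESeq2 (0.118), and it was called in 9 of 16 alternatives, with adjusted p from 0.00735 to 0.249.

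The deposited measures placed PIWIL4 differently between the transduced groups. Its summed TPM was 0.315 and 0.339 in WT, 1.06 and 1.21 with GFP, and 0.899 and 0.727 with RBMXL3, so RBMXL3 was 0.718 times GFP in TPM and 1.25 times GFP in normalised reads. The GFP excess in TPM lay in PIWIL4-203, a short transcript at the 3′ end of the gene. PIWIL4-203 was at 0.452 and 0.981 TPM in GFP, 0.151 and 0 in WT, and 0 and 0 in RBMXL3. The full-length PIWIL4-201 was at 0.164 and 0.306 TPM in WT, 0.422 and 0.228 with GFP, and 0.749 and 0.520 with RBMXL3, highest in both RBMXL3 libraries. PIWIL4 also shares 683 exon bases, 15.0% of its exon length, with FUT4 on the same strand, a fucosyltransferase gene with 390 to 526 reads per library. These bases belong to the long upstream transcripts PIWIL4-202 and PIWIL4-204, and reads from them cannot be assigned to either gene with certainty.

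**Figure D3:**
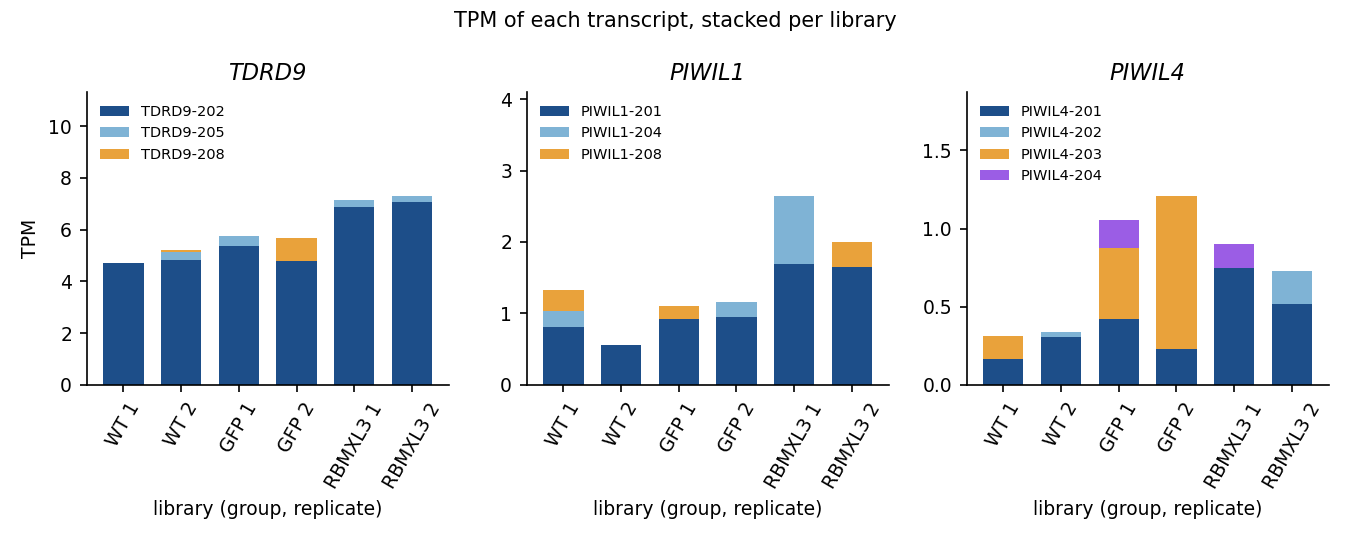
TPM of each transcript of TDRD9, PIWIL1 and PIWIL4 (stacked bars, from 0) in each of the 6 libraries. TDRD9-202 makes up most of every TDRD9 bar, and PIWIL4-203 is large in GFP and listed at 0 in RBMXL3.

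Per length, the members ranked TDRD9, PIWIL1, PIWIL4 and then the 7 low genes. TDRD9, at 4.73 to 7.30 TPM, did not overlap PIWIL1, at 0.563 to 2.65 TPM, in any library. PIWIL1 and PIWIL4 did not differ beyond their spread in GFP, where PIWIL1 was at 1.099 and 1.16 TPM and PIWIL4 at 1.06 and 1.21. PIWIL1 exceeded PIWIL4 in both WT and both RBMXL3 libraries. The low genes stayed at or below 0.325 TPM, and their order among themselves changed from library to library.

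Counted over the members, the limma calls were set beside those over all tested genes. Against GFP, 1 of the 3 tested members was higher (PIWIL1) and 0 were lower, where 10.5% of the 14292 tested genes were higher and 20.9% were called in either direction. Against WT, 3 of 3 were higher, where 14.6% of genes were higher and 29.9% were called. PIWIL4 is among these and entered the test only because the groups other than WT were high, so the count without it is 2 of 2 (PIWIL1 and TDRD9). Against both controls, 1 of 3 was higher, where 6.88% were higher and 13.7% were called. Between GFP and WT, 0 of 3 members were called, 1 had an unadjusted p under 0.05 with limma, and 0 were called with edgeR or DESeq2, where 1.76% of genes were higher and 3.67% were called. Both RBMXL3 comparisons share the RBMXL3 libraries, and a count over 3 genes that passed a filter does not describe the 10.

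**Figure D4:**
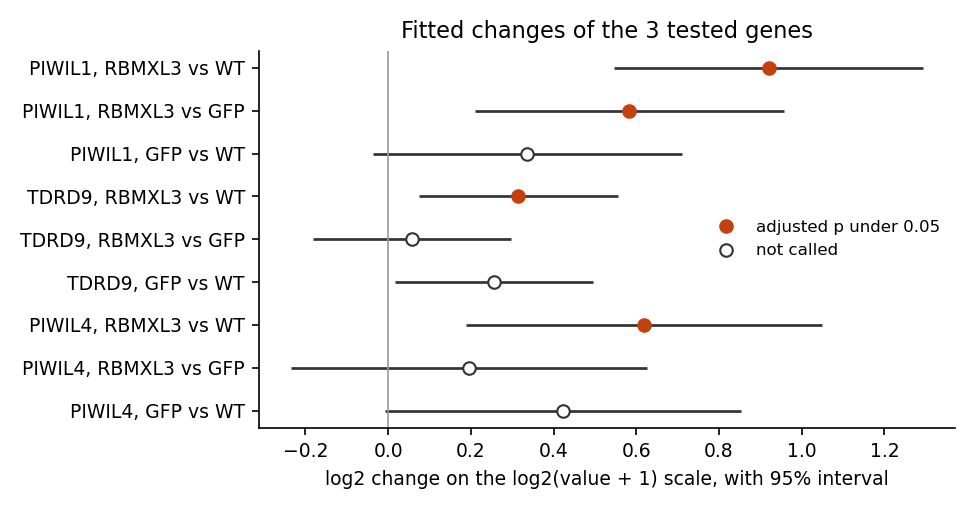
Fitted log2 changes (horizontal axis, log2(value + 1) scale) of PIWIL1, TDRD9 and PIWIL4 in the 3 comparisons, with 95% intervals; filled points had an adjusted p under 0.05. Every estimate lies above 0, and the 4 filled points are PIWIL1 in both RBMXL3 comparisons and TDRD9 and PIWIL4 against WT.

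Only PIWIL1-201 and TDRD9-202 of the 57 annotated member transcripts reached 1 TPM in at least 2 libraries, PIWIL1-201 through the RBMXL3 libraries alone. With limma on log2(TPM + 1), 0 of these 2 transcripts were called against GFP, against WT or between the controls, and 0, 2 and 0 had an unadjusted p under 0.05. The shares called among all 44693 tested transcripts were 1.25%, 1.53% and 0%. TDRD9-202 changed by 0.40 against GFP (adjusted p = 0.273) and 0.46 against WT (adjusted p = 0.226). PIWIL1-201 changed by 0.47 (adjusted p = 0.386) and 0.67 (adjusted p = 0.258).

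The rest of the piRNA pathway was present but incomplete. Of 22 further pathway genes, 13 passed the filter, 3 stayed below it, 4 were at trace level and 2 were silent. The silent genes were MOV10L1, the helicase that starts piRNA processing, and FKBP6, a nuage co-chaperone. Against GFP 0 of the 13 were higher and 3 lower, where 20.9% of all tested genes were called in either direction. Against WT 1 was higher and 7 lower, where 29.9% of all genes were called, and the alternatives called between 1 and 9 of them. The gene higher against WT was SPOCD1, at 16.1 and 15.9 normalised reads in WT, under the minimum for testing in both libraries. It was tested only because GFP and RBMXL3 were higher. The median changes were -0.10 and -0.35, beside 0.00 and -0.01 over all genes. With summed TPM the medians were -0.03 and -0.16, beside 0.13 and 0.03 over all genes on that scale. HENMT1, which methylates the 3′ ends of piRNAs, was at -0.57 and -0.47 (limma adjusted p = 0.00284 and 0.00509), but at 0.16 against GFP with summed TPM. PRMT5, the arginine methyltransferase that marks PIWI proteins for Tudor binding, fell by 0.49 and 0.38 (limma adjusted p = 0.00910 and 0.0221). With summed TPM it stood at -0.14 and -0.05 (limma adjusted p = 0.688 and 0.890), and the calls held in 13 and 10 of 17 alternatives. Its partner WDR77 fell by 0.57 and 0.40 (limma adjusted p = 0.00339 and 0.0141), with calls in 15 and 11 of 17 alternatives. PRMT5 had the highest level of the pathway list, 97.3 to 148 TPM, and both it and WDR77 also act in cells outside the germ line.

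**Figure D5:**
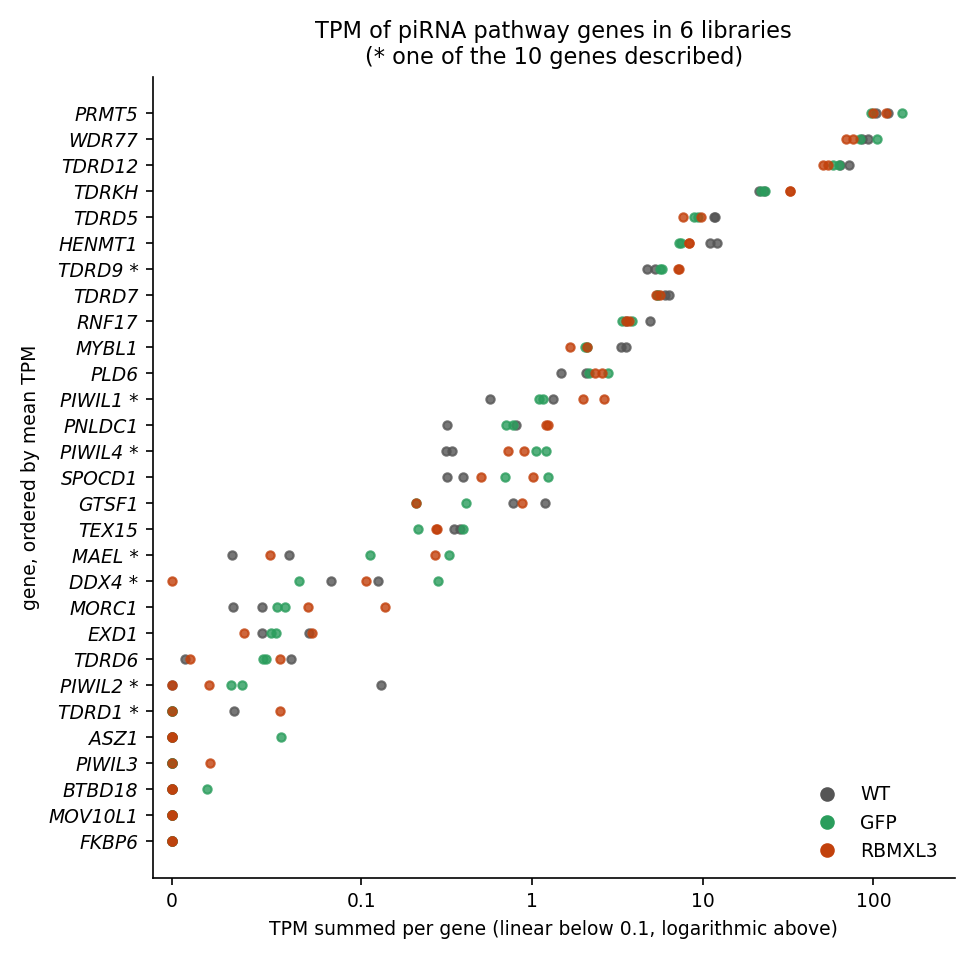
TPM summed per gene (horizontal axis, linear below 0.1 and logarithmic above) of the 22 further piRNA pathway genes and 7 of the 10 described genes (asterisks) in each library (points, coloured by group), ordered by mean TPM. PRMT5 is at the top with up to 148 TPM, TDRD9 reaches 7.30 TPM, and MOV10L1 and FKBP6 are listed at 0 in all 6 libraries.

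Among 39 further meiosis genes, 9 passed the filter, 16 stayed below it, 8 were at trace level and 6 were silent, SPO11, the enzyme that makes meiotic DNA breaks, among them. Of the 9, 3 were higher against GFP and 4 against WT, where 10.5% and 14.6% of all genes were higher, and 0 were lower in either. The alternatives called 1 to 3 against GFP and 1 to 4 against WT. The median changes were 0.37 and 0.26, and with summed TPM 0.14 and 0.13, beside 0.13 and 0.03 over all genes on that scale. REC8, a cohesin subunit specific to meiosis, rose by 0.73 and 1.18 (limma adjusted p = 0.00352 and 0.000123), with calls in 16 and 17 of 17 alternatives. SYCP2, the binding partner of SYCP3 in the lateral element, rose by 1.03 and 0.58 (limma adjusted p = 0.00149 and 0.0180), while SYCP3 itself had at most 4 reads. In summed TPM SYCP2 stood at 0.19 and 0.04 (limma adjusted p = 0.623 and 0.920). YTHDC2, a helicase needed for meiotic entry, had the highest level of this list, 8.26 to 10.6 TPM.

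Germ cell RNA regulators were better represented. Of 16 genes, 13 passed the filter, and 4 were higher against GFP, 5 against WT and 0 lower in either, where 10.5% and 14.6% of all genes were higher. The alternatives called 0 to 5 against GFP and 1 to 8 against WT. The median changes were 0.14 and 0.24. YBX2, a Y-box protein that stores germ cell mRNA, rose by 0.85 and 1.20 (limma adjusted p = 0.00473 and 0.000405), with calls in 16 and 17 of 17 alternatives. NANOS3, a primordial germ cell survival factor, rose by 0.50 and 0.63 (limma adjusted p = 0.0367 and 0.00964), but the call against GFP held in 6 of 16 alternatives (adjusted p up to 0.207) and that against WT in 11 of 16. DAZAP1, a DAZL-associated RNA-binding protein found in many tissues, had the highest level, 155 to 208 TPM. Late spermatid genes were close to absent: of 10, 6 were silent, 3 were at trace level and ACR, the acrosomal protease, had at most 7 reads.

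All 21 listed repressors of germ cell genes passed the filter. Against GFP 2 were higher and 1 lower, and against WT 2 were higher and 2 lower, where 20.9% and 29.9% of all genes were called. The alternatives called 0 to 8 and 1 to 7 of them, and the medians of -0.01 and 0.04 changed sign with the scaling. HDAC2, a histone deacetylase, was the one called against both controls, and it fell by 0.38 and 0.43 (limma adjusted p = 0.0265 and 0.0109), with calls in 12 and 13 of 17 alternatives. TRIM28, a co-repressor of transposons, had the highest level, 1259 to 2026 TPM. Of the 12 identity markers, 1 was higher and 3 lower against GFP, and 2 were higher and 4 lower against WT. Over all tested genes, 10.5% and 14.6% were higher, and 20.9% and 29.9% were called in either direction. NANOS3, given above, was the one higher against both, and 3 were lower against both: the receptor KIT at -0.39 and -0.80 (limma adjusted p = 0.0150 and 0.000159), the RNA-binding protein LIN28A at -0.37 and -0.33 (0.0345 and 0.0412) and the transcription factor SALL4 at -0.39 and -0.32 (0.0132 and 0.0236). With summed TPM none of these 3 was called against either control (limma, adjusted p from 0.0724 to 0.967), and LIN28A was at -0.01 and -0.09. The LIN28A calls held in 11 and 9 of 17 alternatives. Among the somatic markers SOX9, a Sertoli cell transcription factor, rose by 0.49 and 0.60 (limma adjusted p = 0.0337 and 0.0101), with calls in 8 and 9 of 16 alternatives (adjusted p up to 0.215 and 0.172). AMH, a Sertoli cell hormone, had the highest level of that list, 5.84 to 12.2 TPM. SOX2, a marker of embryonal carcinoma, summed to 15.1 and 31.3 normalised reads in WT, 11.7 and 15.7 with GFP, and 32.2 and 34.2 with RBMXL3.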

How the data were processed

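Per the submitters' processing notes, reads were trimmed with Trim Galore 0.6.10, and STAR 2.7.11a, DESeq2 and Salmon 1.10.2 were used with GRCh38. The annotation and the strand setting of the counting are not given in the sources used here. Although its name says CPM, the authors' gene table holds a normalised signal, reads divided by a size factor per library: 100% of nonzero values were whole multiples of the library's step (tolerance 0.01 reads). The authors' transcript table holds TPM, which was summed per gene through GENCODE 29 (80.0% of transcripts matched) and keeps no depth. Gene coordinates are from GENCODE 29.

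Gene values were divided by a common factor of 23.9, which brings them to the CPM scale the planned test assumed. Genes with at least 1 in at least 2 libraries were tested as log2(value + 1), which understates changes of low genes, using limma 3.58.1 under R 4.3.3. The 6 libraries entered a single model with an intensity trend, and the threshold was a Benjamini-Hochberg adjusted p of 0.05. Alternatives included edgeR 4.0.16 and DESeq2 1.42.0 on recovered reads. The scripts were tested on simulated data, with gene changes planted only in genes read more than PIWIL1 or PIWIL4. That simulation therefore does not bear on calls at the level of these 2 genes. Silent means 0 reads in all 6 libraries, and trace at most 3 in any. Genes named outside the 10 were those called against both controls, at most 5 per list, and the gene with the highest TPM of each list. SPOCD1 was added for how it passed the filter. The 10 genes, the lists and the tests were chosen with earlier results of these data known. No batch is given in the labels, and protein sequences were not used here.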

Additional observations from a re-analysis of the deposited data

How the results depend on the processing

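The direction of the changes of TDRD9, PIWIL1 and PIWIL4 held in every alternative run except PIWIL4 against GFP, at -0.23 with summed TPM, where the median of all genes shifted to 0.13. PIWIL4 entered that fit only because both GFP libraries, at 1.06 and 1.21 TPM, reached the minimum of 1 TPM. Its WT and RBMXL3 libraries were all under it. Outside the members, HENMT1 against GFP turned to 0.16 with summed TPM. The calls were less stable. Members called against GFP, 1 in the limma fit, came to 0 with a mean value of at least 5 (which leaves only TDRD9 to test), in limma without a filter, with quantile normalization, DESeq2 or summed TPM, and members called against both controls likewise went from 1 to 0. Members called against WT went from 3 to 1 in the first 4 of these alternatives, and to 0 with summed TPM. With edgeR without a filter, 1 member was called against GFP and 2 against WT. Leaving out 1 library gave 0 to 1 members against GFP, 1 to 3 against WT, and 0 to 1 against both. Leaving out a library leaves 1 in its group, assumed to vary like the others. The cause was not tested. Members called between GFP and WT and member transcripts stayed at 0 throughout. Over all genes, alternatives called 679 to 4304 genes against GFP (2986 in the limma fit), 1428 to 6159 against WT (4271) and 0 to 2770 between the controls (524). With summed TPM, 779 genes were higher and 209 lower against GFP, in place of 1503 and 1483.

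The replicate numbers did not pair the libraries: deviations from group means correlated at -0.16 (WT with GFP), 0.03 (WT with RBMXL3) and -0.09 (GFP with RBMXL3). With the replicate block, 1, 2, 0 and 1 members were called against GFP, against WT, between controls and against both, and TDRD9 against WT was not called (limma, adjusted p = 0.0798). The block called 191 genes between the controls. Depth limits the 7 low genes: differences of a few reads cannot be resolved at 17685680 to 29318007 reads per library.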
